A study of Homo sapiens with 9 samples.

Results

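The 45 genes described here are interferon-stimulated genes, a set named by symbol, and each was found once among the 58336 genes of the deposited count table. The study is an RNA sequencing experiment in HaCaT cells, a spontaneously immortal keratinocyte line from human skin. Its labels describe 9 samples: 3 control samples without treatment and 2 groups of 3 given low-dose photodynamic therapy, with RNA taken after 12 h or 48 h. In that treatment cells receive 5-aminolevulinic acid (ALA) at 0.5 mmol per litre, which they turn into a photosensitiser, and then red light (635 ± 5 nm) at a dose of 3 J/cm2. The columns of the treated libraries carry names that match neither time, so their values were not analysed here, and the response to treatment is not described. The interferon-stimulated programme of untreated cells is given in the 3 libraries named Nc1, Nc2 and Nc3. Reading Nc as control is an interpretation of the column name. Errors are SD over these libraries (n = 3), and the labels do not state separate cultures. P-values thus measure only the spread between these samples, which may be technical.

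Interferons are secreted alarm proteins made by cells that sense a virus or misplaced nucleic acid. Type I interferons (alpha, beta and their relatives) and type III interferons (lambda) signal through receptor-bound kinases of the JAK family to a complex that holds STAT2 and IRF9 and binds the interferon-stimulated response element (ISRE) in promoters. Type II interferon (gamma) acts through another element, the gamma-activated site (GAS). The induced genes block viral entry, detect or cut viral RNA, tag proteins with the small modifier ISG15, and recruit immune cells. Keratinocytes are known to hold part of this programme at a low level without added interferon.

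The ISRE is the element through which type I and type III signals reach promoters, so its letters were sought in RefSeq promoter windows (GRCh38.p14) that run from 250 bases before to 50 bases after a gene's start. Windows were found for 36 of the 45 members. The letters GAAA, any 2 bases and GAAA again, or TTTC, any 2 bases and TTTC for the opposite strand, stood in 29 of their 49 windows (59.2%), against 3.57% of all 35116 windows. Counted by gene, 24 of the 36 members held a match. The GAS letters TTC, any 3 bases and GAA, which read the same on both strands, stood in 15 of the 49 windows (30.6%), against 7.66% of all windows. Both motifs were searched at every position, so matches may overlap. A match describes the letters only and does not show that a factor binds there.

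Below are the upstream stretches around the match nearest the start, on the gene's strand, for the 4 members with the highest and the 4 with the lowest expression among those with a match before the start. They show that the same letters precede genes at opposite ends of the expression range. Capitals mark only that match, and in IFITM3 and ISG15 another match lies in the printed stretch.
IFITM3, chr11:320861-320920, minus strand: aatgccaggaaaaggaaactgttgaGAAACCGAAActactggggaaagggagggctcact
ISG15, chr1:1013365-1013424, plus strand: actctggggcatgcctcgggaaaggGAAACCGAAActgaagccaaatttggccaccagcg
IFITM1, chr11:313975-314034, plus strand: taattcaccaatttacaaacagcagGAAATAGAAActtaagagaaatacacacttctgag
OAS3, chr12:112938437-112938473, plus strand: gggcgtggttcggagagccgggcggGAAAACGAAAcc
EPSTI1, chr13:42992257-42992316, minus strand: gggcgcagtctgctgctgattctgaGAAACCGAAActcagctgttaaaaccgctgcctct
RSAD2, chr2:6877607-6877666, plus strand: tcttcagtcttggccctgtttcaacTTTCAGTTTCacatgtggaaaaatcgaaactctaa
IFI44L, chr1:78620350-78620409, plus strand: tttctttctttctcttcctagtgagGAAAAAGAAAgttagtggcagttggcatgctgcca
HERC5, chr4:88457020-88457079, plus strand: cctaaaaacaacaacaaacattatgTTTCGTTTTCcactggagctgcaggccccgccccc

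The far end of the match lies 35 bases before the start in IFITM3, 107 in ISG15 and 12 in OAS3. IFITM3, ISG15 and EPSTI1 carry the identical match GAAACCGAAA, and mean expression was 242 FPKM in IFITM3, 96.0 in ISG15 and 0.385 in EPSTI1. Their promoters are not alike in number of matches, with 2 in IFITM3, 2 in ISG15 and 1 in EPSTI1. At the low end, IFI44L held 2 matches, HERC5 3 and RSAD2 1. FPKM are the authors' values, counts scaled to gene length and library size, and levels of different genes are compared on this scale throughout. The annotated gene length can exceed the longest transcript by unlike amounts. It was 13047 against 4064 bases in MX2 and 10240 against 5874 in IFI44L, but 865 against 841 in IFI6. Ratios and ranks between genes depend on this length, and no other length was tried. The 24 members with an ISRE match had a median of 3.18 FPKM and ran from 0.107 to 242 FPKM. The 12 with a window but no match had a median of 1.59 FPKM and ran from 0.0981 to 82.5 FPKM. The ranges overlap almost entirely, and no test was made of this split.

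Expression of the programme in untreated cells was broad but uneven. A gene is called detected here if no library held fewer than 10 of its counts, and 41 of the 45 members (91.1%) were detected, against 57.1% of the 19883 protein-coding genes listed. The members were chosen with earlier results of these data known, and no test was made of this difference. No member lacked counts altogether. The median of the 41 detected members was 3.13 FPKM and that of the 11348 detected protein-coding genes 4.82 FPKM. Among detected protein-coding genes, 4 members ranked in the highest 10% and 11 in the lowest 20%. The 5 highest, IFITM3, ISG15, UBE2L6, IFITM1 and IFITM2, made up 73.3 ± 3.86% of the summed FPKM of all members.

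**Figure D1:**
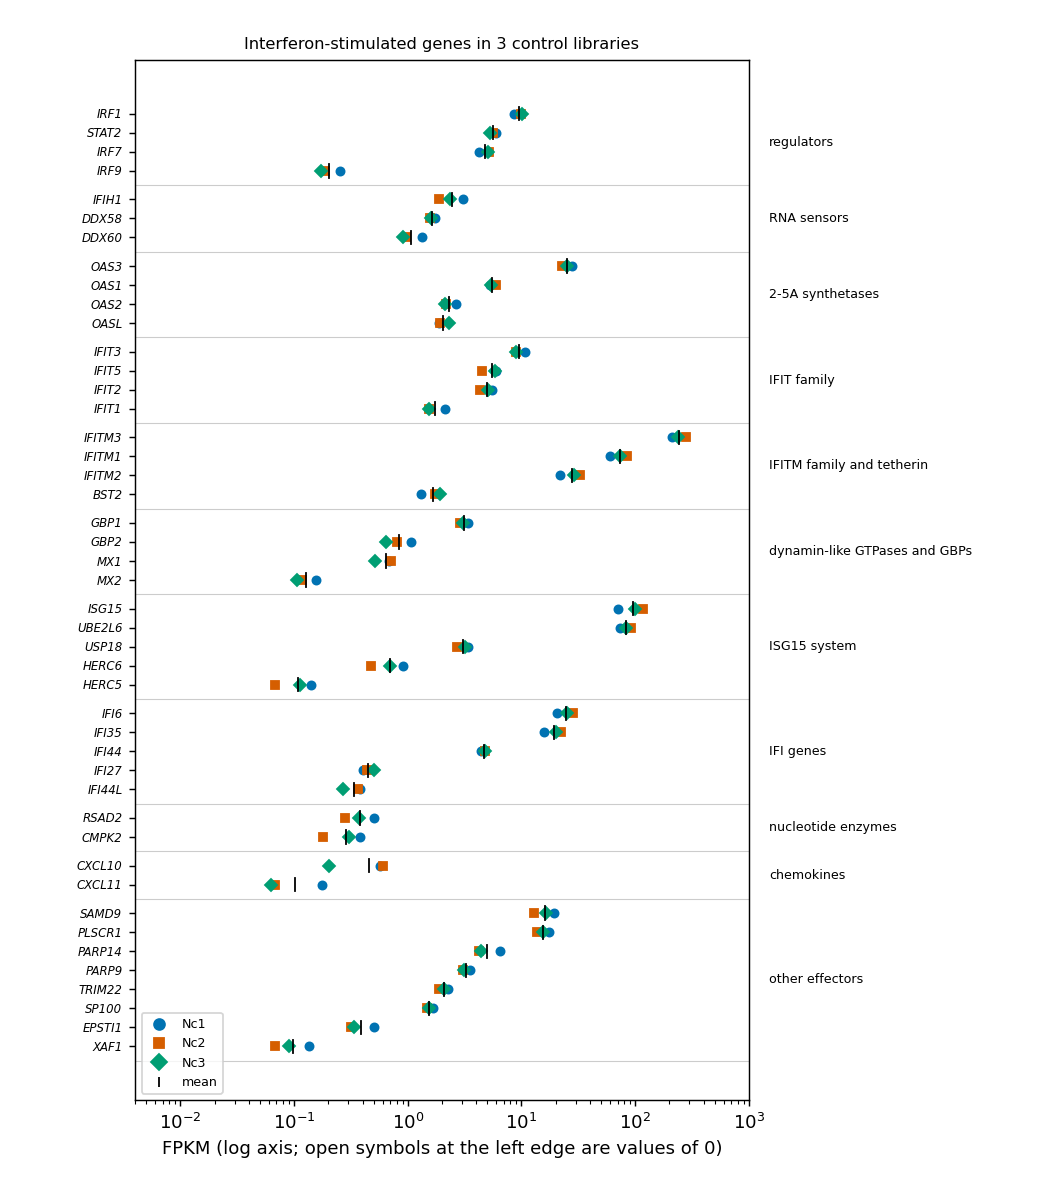
FPKM (log axis) of each of the 45 members in Nc1 (circles), Nc2 (squares) and Nc3 (diamonds), with the mean as a vertical bar, grouped by role. IFITM3 lies farthest right at a mean of 242 FPKM and XAF1 farthest left at 0.0981 FPKM, while points of 1 gene lie close together beside that range.

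The regulators come first. STAT2, a subunit of the ISRE-binding complex (ENSG00000170581, chromosome 12, 56341597 to 56360155, minus strand, GRCh38), stood at 5.96, 5.60 and 5.28 FPKM in Nc1, Nc2 and Nc3. IRF7, which amplifies type I interferon production, stood at 4.21, 5.15 and 5.10 FPKM, and IRF1, a broadly acting activator of interferon-stimulated genes, at 8.57, 9.97 and 10.1 FPKM. IRF1 thus lay above IRF7 in every library, by 1.98 ± 0.0499 times. IRF9, the DNA-binding subunit of the same complex as STAT2 (ENSG00000213928, chromosome 14, 24161053 to 24166565, plus strand), had 17, 11 and 11 counts, or 0.252, 0.187 and 0.173 FPKM. Its level was 0.0361 ± 0.00532 times that of STAT2 and the lowest of any detected member but MX2. Of its exonic bases in GENCODE release 29, 48.4% also lie in exons of another gene on the same strand, AL136295.5, which had 4, 10 and 10 counts. The sources used here do not give how reads shared by overlapping genes were counted, and the low count of IRF9 may not measure its RNA. The effect of the overlap was not tested. IRF1 shares 22.0% of its exonic bases with C5orf56 on the opposite strand, but that gene had only 42, 27 and 26 counts beside 1190, 1207 and 1318 for IRF1.

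The kinases of the receptors lie outside the set and were detected. JAK1 and TYK2, which serve the type I receptor, stood at 12.6 ± 1.88 and 6.79 ± 0.564 FPKM, and JAK2, which serves the gamma receptor, at 0.446 ± 0.128 FPKM. STAT3, a related factor with roles in wound repair of skin, stood at 12.5 ± 1.25 FPKM.

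Of 6 receptor chains, 4 were detected. The gamma receptor chains IFNGR1 and IFNGR2 stood at 21.5 ± 3.95 and 9.60 ± 1.91 FPKM, and the type I chain IFNAR1 at 4.85 ± 0.859 FPKM. IFNLR1, the chain specific to lambda interferons, stood at 1.64 ± 0.329 FPKM. The chains below the minimum were IFNAR2, the second type I chain, with 11, 6 and 15 counts, and IL10RB, the second lambda chain, with 6, 8 and 1. Both share exons on the same strand with AP000295.1, which had no count in any library. The shared part was 44.2% of the exonic bases of IFNAR2 and 38.1% of those of IL10RB. As with IRF9, the effect of this overlap was not tested.

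Among 21 interferon genes, 19 had no count in any library, including IFNB1, IFNK, all 13 alpha genes and all 3 lambda genes listed. Where none is seen, up to 3 counts remain possible, or 0.177 CPM in Nc1, 0.183 in Nc2 and 0.18 in Nc3 (CPM, counts scaled to library total), a limit for counting error only. IFNE, an interferon of epithelia, had 6, 3 and 0 counts. The 1 detected ligand was IFNG, the type II interferon made mainly by lymphocytes, with 13, 18 and 38 counts, or 0.600, 0.952 and 1.86 FPKM. Nc3 held the most IFNG counts.

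**Figure D2:**
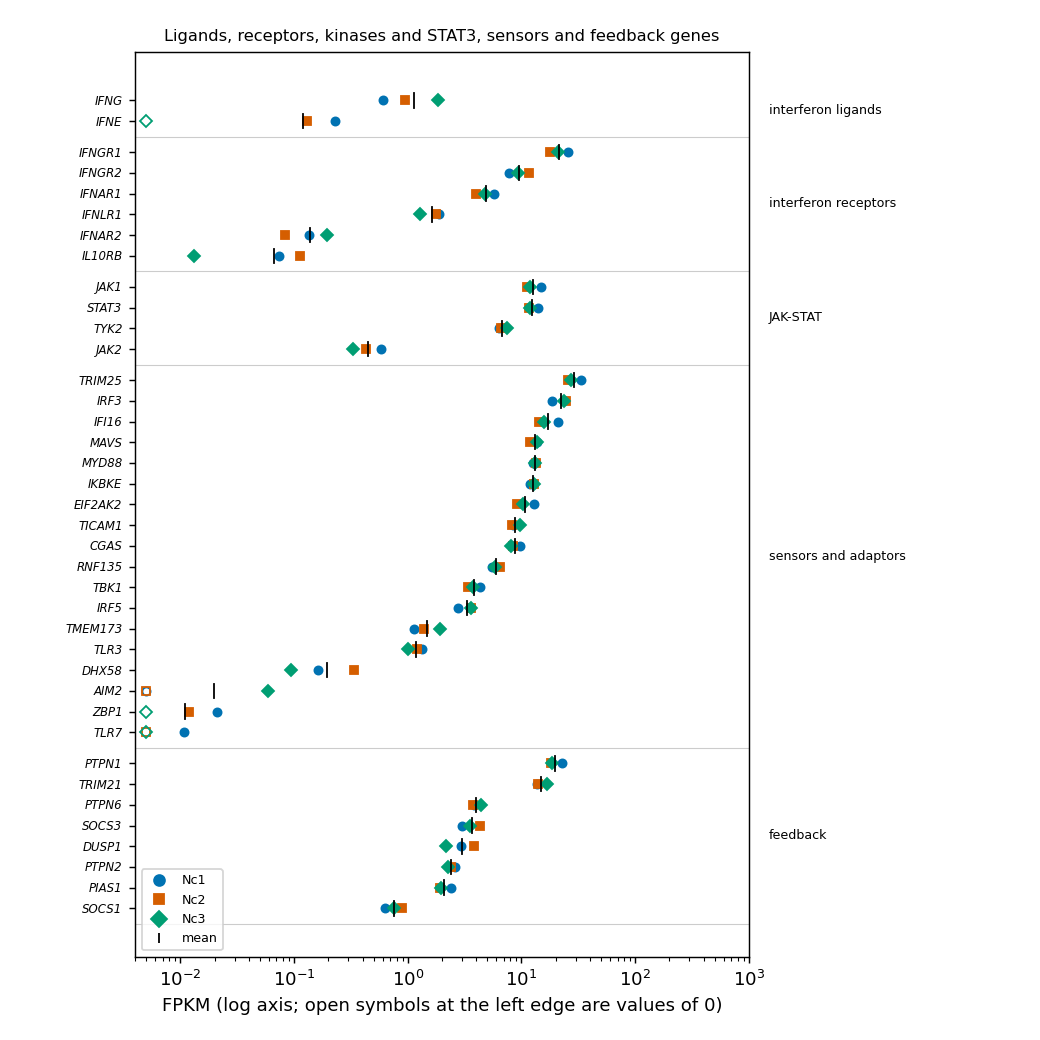
FPKM (log axis) of ligands, receptor chains, JAK and STAT genes, sensors and adaptors, and feedback genes that had at least 1 count and are reported here, in Nc1 (circles), Nc2 (squares) and Nc3 (diamonds), with the mean as a vertical bar and open symbols at the left edge for 0. IFNGR1 at 21.5 FPKM and TRIM25 at 28.9 FPKM lie to the right, while IFNG at 1.14 FPKM is the rightmost ligand.

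All 3 RNA sensors among the members were detected. IFIH1 (MDA5), which recognises long double-stranded RNA, stood at 3.09, 1.88 and 2.34 FPKM. DDX58 (RIG-I), which recognises RNA with a free triphosphate end, stood at 1.73, 1.57 and 1.60 FPKM, and the related helicase DDX60 at 1.33, 0.964 and 0.910 FPKM. IFIH1 exceeded DDX58 in each library, by 1.48 ± 0.295 times. Of the 19 other sensors and adaptors, 14 were detected. MAVS, the mitochondrial adaptor of both RNA sensors, stood at 13.1 ± 1.03 FPKM, and IRF3, the factor activated below it, at 22.2 ± 3.26 FPKM. The DNA sensor CGAS stood at 8.71 ± 0.794 FPKM and its adaptor TMEM173 (STING) at 1.47 ± 0.397 FPKM. DHX58 (LGP2), the third helicase of this family, had 11, 20 and 6 counts and was not detected by the minimum.

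The oligoadenylate synthetases make the second messenger that activates RNase L, which cuts RNA. OAS1, OAS2 and OAS3 lie together on chromosome 12, between 112906777 and 113011723, and differed widely in level. OAS3 stood at 28.0, 22.5 and 25.03 FPKM, OAS1 at 5.27, 5.97 and 5.42 FPKM and OAS2 at 2.66, 2.16 and 2.11 FPKM. Their ranges do not overlap. OAS3 exceeded OAS2 by 10.9 ± 0.791 times and OAS1 by 4.57 ± 0.768 times. OASL, a relative that lacks the synthetase activity, stood at 2.03 ± 0.228 FPKM, a range that overlaps that of OAS2.

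The 4 IFIT genes, whose products bind viral RNA, fill a stretch of 137 kb on chromosome 10. IFIT3 was the highest, at 10.7, 8.88 and 8.94 FPKM, and IFIT1, which recognises incompletely capped RNA, the lowest, at 2.12, 1.55 and 1.55 FPKM. IFIT5 and IFIT2 lay between them at 5.46 ± 0.853 and 4.97 ± 0.594 FPKM, with overlapping ranges. IFIT3 exceeded IFIT2 by 1.92 ± 0.132 times, and IFIT1 reached 0.349 ± 0.0378 times the level of IFIT2.

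The IFITM genes, whose proteins hinder fusion of viruses with cell membranes, were the family with the highest RNA level. IFITM3 (ENSG00000142089, chromosome 11, 319669 to 327537, minus strand) stood at 209, 278 and 239.9 FPKM, above 98.4% of detected protein-coding genes. IFITM1 stood at 60.2, 85.6 and 74.0 FPKM and IFITM2 at 21.8, 32.9 and 28.8 FPKM. The order IFITM3, IFITM1, IFITM2 held in each library, with IFITM3 at 3.32 ± 0.134 times IFITM1 and 8.80 ± 0.702 times IFITM2. The 3 genes are close copies, and IFITM1 shares 32.5% of its exonic bases with IFITM2 on the same strand, so the division of counts among them is uncertain. BST2 (tetherin), which holds budding viruses at the cell surface, is grouped here by its role and had only 26, 30 and 36 counts, or 1.65 ± 0.313 FPKM.

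The ISG15 system attaches the modifier ISG15 to proteins, and its parts were far from equal. ISG15 (ENSG00000187608, chromosome 1, 1001138 to 1014541, plus strand) stood at 70.2, 118 and 99.6 FPKM. Its conjugating enzyme UBE2L6 stood at 73.3, 91.4 and 82.8 FPKM, close to ISG15 itself, with a ratio of 1.15 ± 0.174. HERC5, the main ligase of this pathway in human cells, had 12, 5 and 9 counts and was not detected by the minimum. HERC6, its neighbour on chromosome 4, had 94, 43 and 68 counts, or 0.697 ± 0.217 FPKM. USP18, which removes ISG15 and damps the type I receptor, stood at 3.38, 2.69 and 3.19 FPKM. The modifier and the conjugating enzyme thus stood among the highest members and the ligase among the lowest.

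The dynamin-like GTPases form rings or cages around pathogens. MX1 had 105, 96 and 74 counts, or 0.638 ± 0.111 FPKM, and MX2 had 36, 24 and 23, or 0.126 ± 0.0258 FPKM. GBP1 stood at 3.41, 2.90 and 3.07 FPKM and GBP2 at 1.07, 0.811 and 0.646 FPKM, with no overlap between this pair. GBP1 exceeded GBP2 by 3.84 ± 0.819 times.

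The IFI genes differed widely in level. IFI6, a mitochondrial inhibitor of apoptosis, stood at 20.7, 28.4 and 25.3 FPKM and IFI35 at 15.8, 22.2 and 20.2 FPKM. IFI44 stood at 4.68 ± 0.210 FPKM, whereas IFI44L, which lies beside it on chromosome 1 within a stretch of 44.2 kb, stood at 0.337 ± 0.0604 FPKM. IFI27, a widely used marker of interferon exposure, had 30, 28 and 35 counts, or 0.448 ± 0.0496 FPKM. The level of IFI6 was 75.6 ± 20.03 times that of IFI44L, a ratio that depends on the annotated gene lengths.

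RSAD2 (viperin) and CMPK2 cooperate to make a chain-terminating nucleotide and lie on opposite strands of chromosome 2. RSAD2 had 43, 21 and 30 counts and CMPK2 had 29, 12 and 22. Both were highest in Nc1 and lowest in Nc2. They share only 0.325% of the exonic bases of CMPK2, and neither varied by more than counting noise in the test given further on. The chemokines that attract T cells were at the edge of detection: CXCL10 had 12, 11 and 4 counts and CXCL11 had 6, 2 and 2.

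Among the other effectors, SAMD9, which restricts poxviruses, stood at 19.4, 12.9 and 16.3 FPKM, and the phospholipid scramblase PLSCR1 at 17.6, 13.8 and 15.4 FPKM. PARP14 and PARP9, enzymes of ADP-ribosylation, stood at 5.02 ± 1.23 and 3.23 ± 0.272 FPKM. TRIM22 stood at 2.06 ± 0.184 FPKM and the nuclear body protein SP100 at 1.55 ± 0.100 FPKM. EPSTI1 stood at 0.385 ± 0.102 FPKM, and XAF1, which promotes apoptosis, had 16, 7 and 10 counts and was not detected by the minimum. Of the exonic bases of XAF1, 38.3% lie opposite PRAL, which had 0, 0 and 1 counts.

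Other interferon-stimulated genes outside the set showed the same breadth of levels. Of 47 listed, 42 were detected. The median over all 47, detected or not, was 4.26 FPKM, and that over all 45 members was 2.44 FPKM. LY6E, a membrane protein that restricts coronaviruses, stood at 182 ± 31.6 FPKM, LGALS3BP at 93.4 ± 2.94 FPKM, and the immunoproteasome subunits PSMB8 and PSMB9 at 82.9 ± 13.8 and 59.3 ± 17.4 FPKM. The ISRE letters stood in 23 of 44 promoter windows of this list (52.3%). All 8 feedback genes were detected, from SOCS1 at 0.762 ± 0.136 FPKM to the phosphatase PTPN1 at 19.9 ± 2.49 FPKM.

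The members were next compared across the 3 libraries. Whether a gene's counts varied by more than counting noise was asked of a chi-square statistic for equal rates, with TMM library sizes and Benjamini-Hochberg adjustment at 0.05 over every gene that averaged 10 counts or more. By this test 19 of the 42 members tested varied (45.2%), against 56.7% of all 13290 genes tested. With library totals in place of TMM sizes, 27 members varied, against 61.8% of all genes, so the members' count lay on either side of the background by the scaling and nothing particular to them is read from it. Without Nc1, 8 members varied, and the count over all genes fell likewise, from 7536 to 2438. For the 30 members that averaged 100 counts or more, the coefficient of variation had a median of 11.8%, the same as for all 9706 genes at that depth. Of the 106 pathway genes outside the set, 47 of 76 tested varied.

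The 19 varying members fell into opposite patterns. The 9 that were highest in Nc1 were DDX60, GBP2, HERC6, IFIH1, IFIT1, OAS3, PARP14, PLSCR1 and SAMD9, with log2 differences in Nc1 from the mean of the other libraries of 0.18 to 0.59. Another 9 were lowest in Nc1: IFI35, IFI6, IFITM1, IFITM2, IFITM3, IRF1, IRF7, ISG15 and UBE2L6, with log2 differences of -0.69 to -0.29. All of these but IRF1 were highest in Nc2. IFIT5 was the remaining gene, highest in Nc3 and lowest in Nc2. Among all genes that averaged 100 counts or more, 46.1% were highest in Nc1 and 42.2% lowest. For the 30 members at that depth the shares were 56.7% and 40.0%. Nothing particular to the members is read from the split. ISG15 differed by -0.69 in Nc1, 0.54 in Nc2 and 0.15 in Nc3, and HERC6, of the opposite pattern, by 0.59, -0.69 and 0.10. Since each library is set against the others, these differences depend on each other.

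**Figure D3:**
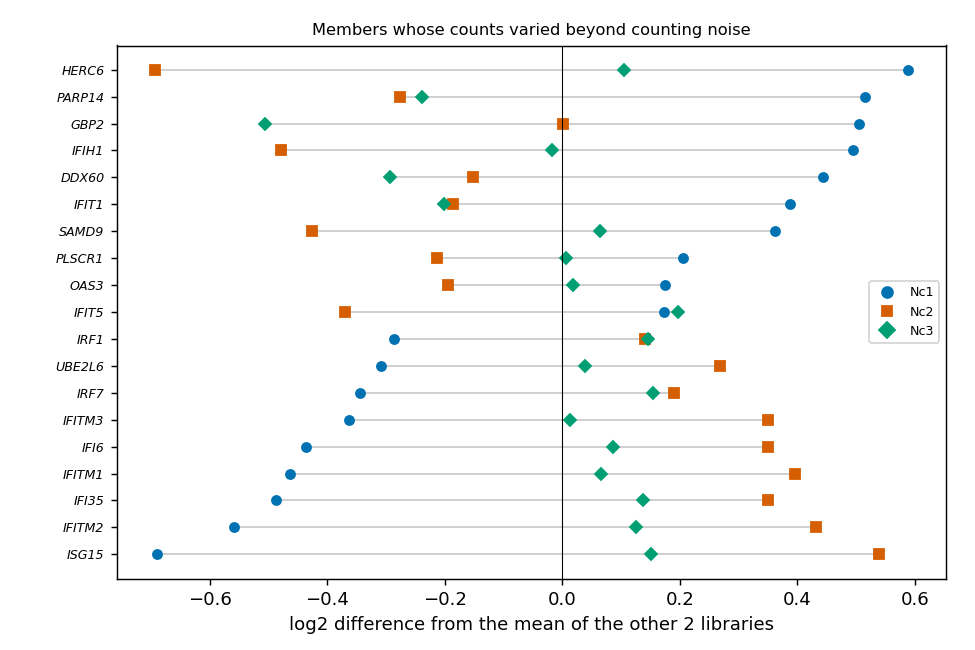
Log2 difference of each of the 19 varying members in Nc1 (circles), Nc2 (squares) and Nc3 (diamonds) from the mean of the other 2 libraries. HERC6 has the highest value in Nc1, at 0.59, and ISG15 the lowest, at -0.69.

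The patterns went with transcript properties. The longest transcripts of the 9 members highest in Nc1 had GC contents of 36.0 to 54.3% (median 42.4%) and a median length of 4613 bases. Those of the 9 members lowest in Nc1 had GC contents of 52.5 to 66.8% (median 56.9%) and a median length of 892 bases. Over these 30 members, the log2 difference in Nc1 had a Pearson correlation with GC content of -0.78 (Spearman -0.71) and with log2 length of 0.82 (Spearman 0.76). Over 9704 genes the same correlations were -0.64 (Spearman -0.69) and 0.49 (Spearman 0.49). These are descriptions across genes of 1 library, and genes are not independent replicates. The relation was thus present in all genes as well as in the members. Its cause was not tested.

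**Figure D4:**
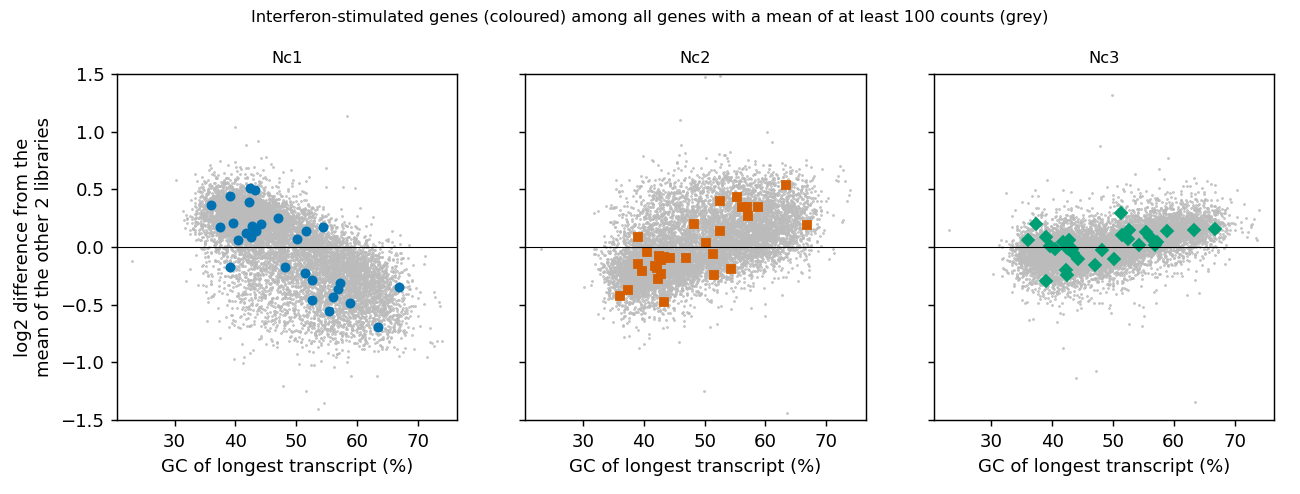
Log2 difference from the mean of the other 2 libraries against the GC content of the longest transcript, in Nc1, Nc2 and Nc3, for 30 members (coloured) and for all genes that averaged 100 counts or more (grey); values beyond 1.5 are not drawn. Members slope down with GC content in Nc1 (Pearson -0.78) and up in Nc2 (0.76), as the grey genes do (-0.64 and 0.51).

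The libraries also differed in counts of genes used as markers of other cell types. Their totals were 16989712, 16354678 and 16702425 counts. Of 8 keratinocyte markers 7 were detected, among them KRT5 at 94.7 ± 5.99 FPKM, while KRT14, which defines basal keratinocytes, had 9, 8 and 15 counts. The 4 red cell genes HBB, HBA1, HBA2 and ALAS2 summed to 7355, 7473 and 3 counts, the 4 granulocyte genes CSF3R, FCGR3B, CXCR2 and S100A12 to 160, 173 and 5, and the 5 leukocyte genes PTPRC, CD3E, CD14, LYZ and CSF1R to 198, 137 and 23. CSF3R, FCGR3B, LYZ, HBA1 and ALAS2 had none in Nc3, while S100A12 had 0, 4 and 4. Markers of fibroblasts summed to 51, 43 and 69 counts, of endothelial cells to 70, 51 and 45, and of melanocytes to 14, 19 and 23. In bulk RNA, fewer cells of a type and less RNA per cell cannot be told apart. The source of the red cell, granulocyte and leukocyte counts was not tested.

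Blood cells express many of these 45 genes, so the members were set beside that split. Median log2 differences of the 30 members were 0.10 in Nc1 (all genes 0.03), -0.08 in Nc2 (all genes -0.01) and 0.03 in Nc3 (all genes 0.00). In the same comparison, 19.6% of all genes and 16.7% of the 30 members were lowest in Nc3. Of the 19 varying members, 3 were lowest in Nc3, the library with the fewest red cell, granulocyte and leukocyte counts. These were GBP2, at 1.07, 0.811 and 0.646 FPKM, DDX60, at 1.33, 0.964 and 0.910 FPKM, and IFIT1, at -0.20 in Nc3 and -0.19 in Nc2 on the log2 difference scale. After scaling, members lowest in Nc3 that did not pass the test were STAT2, OAS2, IFIT3, IRF9, MX1, MX2 and IFI44L. STAT2 had 648, 531 and 541 counts, OAS2 296, 210 and 222, IFIT3 502, 364 and 396, and IRF9 17, 11 and 11. MX1 had 105, 96 and 74 counts, MX2 36, 24 and 23, and IFI44L 69, 58 and 46. CXCL10, with 12, 11 and 4 counts, and CXCL11, with 6, 2 and 2, were lowest in Nc3 too, below the test's minimum. Others that did not pass went the opposite way and were highest in Nc3 after scaling. They were BST2, with 26, 30 and 36 counts, IFI27, with 30, 28 and 35, OASL, with 117, 105 and 135, and IFI44, with 161, 151 and 165. The part of blood RNA in any of these values was not tested.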

How the data were processed

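Libraries of HaCaT RNA were read as paired ends of 150 bases, per the labels' protocols. GRCh38, HISAT2, StringTie and FastQC stand in the submitters' processing notes, without versions or roles. Strand setting, annotation release and handling of shared reads: not given in the sources used here. One deposited table gives unnormalized counts for each gene in whole numbers. The authors' FPKM equalled counts divided by annotated gene length and by a library constant of 1.05, 0.949 and 1.00 times the totals of Nc1, Nc2 and Nc3, to a relative difference of 4.66e-14.

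Only the 3 columns read as control were used. The other 12 per-sample columns of both tables match no label by name. The first values of 3 genes in them were seen when the tables were opened, and they entered no step. The 4 planned comparisons with treated groups, by edgeR's quasi-likelihood test, were therefore not run, nor were their 24 alternatives.

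Members were matched by symbol, and 1 pathway gene, C19orf66, by its older symbol. The members and lists were chosen with earlier results of these data known. Single genes of the pathway and marker lists that are not named are not reported here, though the list counts include them. The rule for named genes admitted all members and the ligands, receptors, kinases, sensors and feedback genes. LY6E, LGALS3BP, PSMB8 and PSMB9 were named after their values were seen. TMM sizes came from edgeR 4.0.16 and alternative size factors from DESeq2 1.42.0 (R 4.3.3). Log2 differences used TMM sizes and a prior of 0.5 counts. GC content and length are of the longest transcript in GENCODE release 29. Counts of 13290 genes were simulated for these libraries with counting noise only, the noise that the chi-square test assumes. Of 200 genes altered in 1 library, the test recovered 152 at 1.5-fold and 177 at 2-fold. It called 5 and 7 others, and 0 genes with none altered. Few false calls follow from that setting, and wider spread between libraries was not simulated. Python 3.11.15 ran the rest, with matplotlib 3.10.9 for plots, SciPy 1.17.1, pandas 2.3.3 and NumPy 2.4.6. The alternatives tried were other detection minimums, other library sizes and leaving out each library.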

Additional observations from a re-analysis of the deposited data

How the results depend on the processing

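No paired analysis was possible because only control libraries entered, so no groups were compared. The 41 detected members became 45 with at least 1 count in every library and 30 with at least 1 FPKM, and numbered 41 or 42 when any single library was dropped. The 74 detected pathway genes became 80 with at least 1 count. No share of all genes at these other settings is given here, so nothing particular to the members is read from these counts. The 19 varying members became 27 with library totals, 18 of the 19 among them, and the same 19 with DESeq2 size factors, where the shares of all genes were 61.8% and 56.9%. Dropping Nc1 left 8, dropping Nc2 16 and dropping Nc3 18, while the background of 7536 genes fell to 2438, 5988 and 7010, so both counts depend on Nc1. Library totals move the median log2 difference of all genes in Nc1 from 0.03 to 0.19, and that of the 30 members from 0.10 to 0.27, while all 19 varying members kept the sign of their difference in Nc1 with either other scaling. Rescaling FPKM by library totals moved 0 of the 41 detected members' means by 1 SD. Depth limits genes near 10 counts, such as IRF9, HERC5 and XAF1.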
